A study of Mus musculus with 8 samples.

Results

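The myogenic cells compared here were grown from skeletal muscle of the hind limb of adult C57BL/6 mice and were sampled in growth medium, where they proliferate. They were sorted by the red fluorescent protein tdTomato, which a tamoxifen-inducible Cre recombinase had switched on permanently. In the group Tw2_GM the genotype was Tw2-CreERT2/+;R26-tdTO+, so that the Cre was driven by Twist2. In the group Pax7_GM it was Pax7-CreERT2/+;R26-tdTO+, with the Cre driven by Pax7. All mice received tamoxifen 3 times, 10 days before the muscle was taken, and no group without Cre or tamoxifen was analysed. Sorted cells were grown on Matrigel, and the medium was Ham's F10 with 20% fetal bovine serum. The labels name this culture in the titles of the samples but describe the RNA as taken from newly sorted cells, and they do not say whether libraries came from separate mice. The comparison uses 4 of the 8 samples of the series, with 2 libraries in Tw2_GM and 2 in Pax7_GM, and covers all 5457 genes that the authors' table lists. The other 4 samples, Tw2_48 and Pax7_48, carry the same genotypes and are titled 48, and they serve below to ask which differences are also present there. The labels of all 8 samples describe a differentiation medium with 2% serum beside the growth medium. The medium and time of the samples titled 48 at harvest could not be settled, so that they may differ in serum from those in growth medium.

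Pax7 encodes the paired-box transcription factor that marks satellite cells, the stem cells under the basal lamina of the muscle fibre that divide and fuse to repair it. Twist2 is a helix-loop-helix transcription factor of mesenchyme and dermis, and cells that have expressed it lie between the fibres and can also form muscle. In growth medium with much serum, myoblasts of either origin divide, and withdrawal of serum makes them leave the cycle, switch on the contractile genes and fuse. Both labels record past expression of the driver gene and not its level at harvest.

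A gene was listed by the authors when its mean CPM (reads scaled to a common library total) differed at least 2-fold from Tw2_GM in at least 1 other group. Of the 5457 genes, 1821 were at least 2-fold higher in Tw2_GM than in Pax7_GM on the scale log2(CPM + 1), 527 at least 2-fold lower, and 3109 were listed only for another group. Implied library sizes were 12173390 and 11295697 reads in Tw2_GM and 7381252 and 5183380 reads in Pax7_GM. Within a group the deeper library is named first and the shallower second, and values are given in that order. The Pax7_GM libraries stood further apart than those of any other group. The SD over genes of the log2 ratio between a group's libraries was 0.50 in Pax7_GM and 0.20 in Tw2_GM. In the fifth of genes with the lowest GC content (33.0 to 43.2% of the transcript) the median log2 ratio of Tw2_GM was 2.23 against the deeper Pax7_GM library and 1.46 against the shallower one. In the fifth with the highest GC content (55.1 to 71.3%) these medians were -0.52 and -0.25. Genes of low GC content were thus lower in the deeper Pax7_GM library, and lower still relative to Tw2_GM. Across 5436 genes with a GC content, Spearman's rank correlation with GC content was -0.69 for the lineage ratio and 0.76 for the ratio of the deeper to the shallower Pax7_GM library. These are correlations across genes of the same libraries and genes are not independent replicates, and the part of GC content in the lineage difference was not tested.

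**Figure D1:**
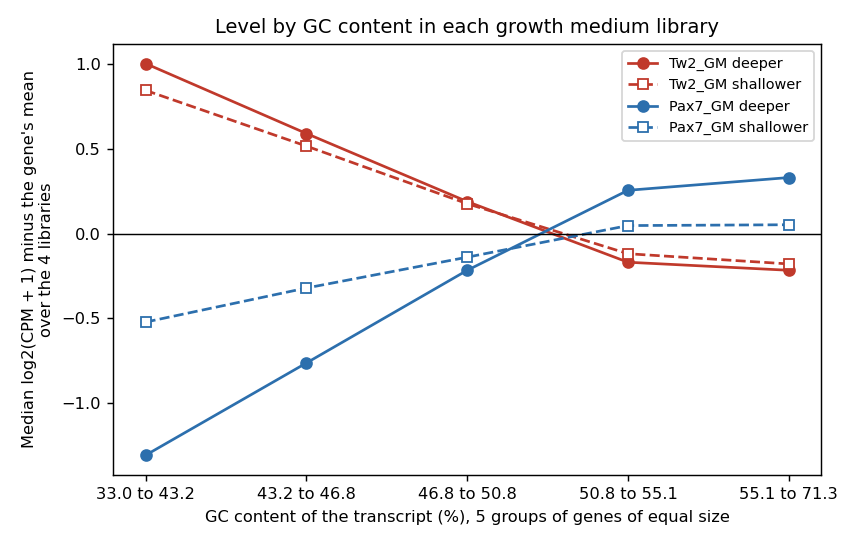
Median of each library's log2(CPM + 1) minus the gene's mean over the 4 growth medium libraries (vertical axis), in 5 groups of genes of equal size ordered by the GC content of the transcript (horizontal axis, percent). Red marks Tw2_GM, blue Pax7_GM, filled circles the deeper and open squares the shallower library. In the group of lowest GC content the deeper Pax7_GM library lay at -1.31 and the shallower at -0.52, while both Tw2_GM libraries lay near each other at 1.003 and 0.85.

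The limma fit uses the 4 libraries on the scale log2(CPM + 1) and leaves 2 residual degrees of freedom. Its p-values measure only the spread between these libraries, which may be technical. By limma with Benjamini-Hochberg adjustment over all listed genes, 2390 genes (43.8%) were higher and 1074 (19.7%) lower in Tw2_GM at adjusted p under 0.05. That split moved with the scaling. It was 1913 higher and 1741 lower with size factors, 1730 and 1868 after quantile normalization, and 3154 and 715 when a trend of the log2 ratio with GC content and transcript length was removed. The median log2 ratio over all genes was 0.33 as deposited, -0.00 with size factors, -0.13 after quantile normalization and 0.53 with the trend removed. A call is said below to hold when it was made in the same direction under all 4 of these scalings. This was so for 1390 genes (25.5%) higher and 445 (8.15%) lower in Tw2_GM. Without the deeper Tw2_GM library the lower calls on the deposited scale numbered 450, and without the shallower one 470, against 1074. The 4 percentages in brackets are the background against which the counts of each gene group are to be read. Of the genes that held as higher in Tw2_GM, 332 of 1390 were at least 2-fold lower in the deeper than in the shallower Pax7_GM library, against 0 of the 445 that held as lower. For 423 of the 445 lower genes, and for 508 of the 1390 higher ones, the Pax7_GM libraries lay within 1.5-fold of each other. The size of a difference therefore depends on the choice of the Pax7_GM library for most genes higher in Tw2_GM and for few of those lower there. Of the 5457 genes, 2901 were in none of the 58 gene lists used below, and 714 of these held as higher and 223 as lower.

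Pax7 itself did not pass the test between the lineages. It had 113 and 109 CPM in the Tw2_GM libraries and 117 and 112 CPM in the Pax7_GM libraries, a log2 ratio of -0.05 (SE 0.17, adjusted p = 0.82), and the ranges overlapped. Its call depended on the scaling, with a log2 difference of -0.56 with quantile normalization (adjusted p = 0.03) and 0.50 with the trend removed (adjusted p = 0.017). Twist2 and Twist1 were not analysed here, so that the label of the Tw2 lineage has no check among these genes. Of 8 markers of satellite cells and myoblasts, 6 were listed, and all 6 were expressed in every library. Desmin (Des), the muscle intermediate filament, had 899 and 969 CPM in Tw2_GM and 1394 and 1033 in Pax7_GM, and M-cadherin (Cdh15), the adhesion protein of myoblasts, 314 and 298 against 373 and 316 CPM. Neither passed the test on the deposited scale, and for both the sign changed when the trend was removed. Itga7, the laminin receptor subunit of muscle, was the only 1 of the 6 that did, with 553 and 512 against 821 and 716 CPM, and it held neither under every scaling nor without the deeper or the shallower Tw2_GM library (adjusted p = 0.34 and 0.44). Summed over the 6 markers, the libraries reached 3409 and 3542 CPM in Tw2_GM against 4364 and 3812 CPM in Pax7_GM. Both groups thus carried the markers of myogenic cells. The fixed markers of endothelium, glia and adipocytes were not analysed here. In wider lists of such genes, 1 gene of glia, Erbb3, held as lower (log2 ratio -1.25). Of 4 adipocyte genes 2 held as lower, Car3 with 43.6 and 35.4 against 238 and 293 CPM and Scd1 with 2.88 and 1.33 against 10.3 and 14.9 CPM, and none was called higher. The wider fibroblast list gave 5 higher and 4 lower of 12, that of pericytes 2 and 2 of 9, and that of tenocytes 1 lower of 2. Of 4 tenocyte markers the transcription factor Scx was listed, with 27.5 and 32.1 CPM in Tw2_GM against 110.1 and 91.4 CPM in Pax7_GM (log2 ratio -1.72), and it held. Of 6 markers of pericytes and smooth muscle, 4 were listed and summed to 686 and 728 CPM in Tw2_GM against 887 and 783 CPM in Pax7_GM. They moved both ways, with the regulator of G protein signalling Rgs5 at 56.3 and 62.1 against 11.4 and 18.9 CPM and the receptor Notch3 at 27.6 and 30.99 against 78.98 and 79.7 CPM. The immune list had 1 listed gene, Itgam, with 0 and 0 CPM in Tw2_GM against 0.542 and 0.579 CPM in Pax7_GM, where 3 reads come to 0.406 and 0.579 CPM, and its call was lost without either Tw2_GM library (adjusted p = 0.28 without the deeper and 0.27 without the shallower). The part of other cell types in the lineage difference was not tested.

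The widest lineage difference in the table belonged to Col1a2 (chromosome 6, 4504814 to 4541544 of GRCm38 in GENCODE), which encodes the alpha-2 chain of type I collagen. It had 3.61 and 3.28 CPM in the Tw2_GM libraries and 424 and 387 CPM in the Pax7_GM libraries. All 4 values were close to those of their own group, and the groups stood 91.5-fold apart (log2 ratio -6.52, SE 0.17, adjusted p = 0.00032). Its partner chain Col1a1 was low in both lineages, with 3.53 and 2.39 CPM against 12.5 and 13.1 CPM (log2 ratio -1.80, adjusted p = 0.0029). Type I collagen is a trimer that normally holds both chains. Col3a1, the chain of type III collagen, went the other way, with 987 and 939.9 CPM in Tw2_GM against 462 and 477 CPM in Pax7_GM (log2 ratio 1.04, adjusted p = 0.0045, and 0.07 without the deeper Tw2_GM library). Col1a1 had an adjusted p of 0.051 in a fit of all 8 libraries. These are the 3 listed genes of the 10 fixed as markers of fibro-adipogenic progenitors and fibroblasts, and they did not move together. Fewer cells of a type and less RNA per cell cannot be told apart in these bulk libraries.

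A first set of genes high in Pax7_GM was again lower in the Tw2 lineage at 48. It and the set after it were put together with the values of both cultures in view. Syt13, a synaptotagmin of vesicle traffic, had 4.93 and 3.90 CPM in Tw2_GM against 106 and 96.1 CPM in Pax7_GM (log2 ratio -4.23, SE 0.19, adjusted p = 0.00099). It stayed low in the Tw2 lineage at 48, where Tw2_48 and Pax7_48 had 6.04 and 4.26 CPM and 74.2 and 79.5 CPM. Arhgef5, a guanine nucleotide exchange factor, was nearly silent in the Tw2 lineage. It had 0.329 and 0.531 CPM in Tw2_GM against 23.3 and 22.2 CPM in Pax7_GM (log2 ratio -4.05, SE 0.18, adjusted p = 0.00099), and 0.218 and 0.319 against 21.05 and 24.1 CPM at 48. Levels in Tw2_GM were thus within a few reads of 0, while every Pax7 library held over 20 CPM. Prrx1, the homeobox factor of limb mesenchyme, had 4.68 and 2.39 CPM against 29.5 and 39.7 CPM (log2 ratio -2.97, SE 0.30). Dhrs4, a short-chain dehydrogenase that reduces retinal and other carbonyls, had 2.05 and 2.39 CPM against 26.7 and 24.1 CPM (log2 ratio -3.03, SE 0.18). Atp6v0e2, a subunit of the vacuolar proton pump, had 1.73 and 2.04 CPM against 22.9 and 23.3 CPM (log2 ratio -3.07, SE 0.17). For these 5 genes the lineage difference in growth medium did not differ from that at 48 by the interaction test (adjusted p from 0.14 for Syt13 to 0.57 for Arhgef5), which does not show that the differences are equal. Pcbd1, a dehydratase that recycles the cofactor of aromatic amino acid hydroxylases, had 0.739 and 1.42 CPM against 16.3 and 14.7 CPM, and Gas6, the ligand of the TAM receptor kinases, 11.3 and 16.8 CPM against 122 and 98.01 CPM. Both were again lower in the Tw2 lineage at 48, with log2 ratios of -2.68 and -2.28. Bex1, a small adaptor protein of neural and regenerating cells that lies on chromosome X, had 0.164 and 0.266 CPM in Tw2_GM against 11.5 and 11.8 CPM in Pax7_GM, and at 48 its level was 27.1 and 30.97 CPM in Tw2_48 against 188 and 162 CPM in Pax7_48. The lineage ratio of Bex1 was smaller at 48 although its level there was higher in both lineages (interaction adjusted p = 0.024). An exon of Bex1 overlaps a neighbouring gene in GENCODE, and reads of overlapping genes cannot be told apart where strand was not used.

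A second set was high in Pax7_GM relative to Tw2_GM and higher again in both lineages at 48. Its members are outside the contractile list. Ablim3, an actin-binding LIM protein, had 1.40 and 2.30 CPM in Tw2_GM against 43.2 and 41.3 CPM in Pax7_GM (log2 ratio -3.92, SE 0.22, adjusted p = 0.00099). At 48 it had 554 and 516 CPM in Tw2_48 against 806 and 859 CPM in Pax7_48. The lineage difference in growth medium minus that at 48 was -3.30 on the log2 scale (SE 0.24, interaction adjusted p = 0.00018). Trim72, which reseals the damaged fibre membrane, had 13.6 and 11.3 CPM against 129.8 and 113 CPM in growth medium and 804 and 837 against 946 and 940.1 CPM at 48 (interaction adjusted p = 0.00015). Exons of Trim72 overlap the model Gm15533. Tmem182, a membrane protein of muscle, had 1.48 and 0.443 against 14.9 and 12.9 CPM in growth medium and 129.5 and 131 against 138 and 117 CPM at 48, where the ranges overlapped. In growth medium the groups do not overlap for these genes by the way they were chosen. Camk2b, a calcium/calmodulin kinase subunit, had 0.493 and 0.708 CPM against 15.9 and 15.8 CPM, and Apobec2, the muscle member of the APOBEC family, 0.657 and 1.15 CPM against 17.3 and 17.7 CPM. Mypn (myopalladin, a Z-disc protein) stood at 2.63 and 3.19 against 37.3 and 38.8 CPM and Hfe2 (hemojuvelin, a BMP co-receptor abundant in muscle) at 3.20 and 3.19 against 44.7 and 35.7 CPM. Pgam2, the muscle phosphoglycerate mutase, had 4.11 and 3.72 CPM against 57.8 and 41.3 CPM, and Adck3, a kinase-like protein of coenzyme Q synthesis, 2.55 and 1.15 against 28.9 and 28.2 CPM. R3hdml had 0.657 and 0.354 against 12.2 and 8.68 CPM. Hspb8, a small heat shock protein, was the most abundant of the set in growth medium, at 42.5 and 45.2 against 381 and 289 CPM. These 11 genes were grouped with the interaction test known, and their adjusted p lay between 0.00015 for Trim72 and 0.0069 for Hspb8. In both cultures of the Tw2 lineage Atp9a, a lipid flippase, and Sel1l3 were below the Pax7 lineage, with 0.164 and 0 against 9.21 and 7.14 CPM in growth medium for Atp9a, and 0.411 and 0.885 against 13.5 and 13.5 CPM for Sel1l3.

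The remaining genes among the 25 largest differences in this direction, ranked outside the contractile, myogenic and cell cycle lists, have other roles. The contractile list reached a log2 ratio of -5.02, beyond every gene of this ranking except Col1a2. Txnip, which binds thioredoxin and limits glucose uptake, had 2.79 and 2.66 CPM in Tw2_GM against 31.8 and 30.9 CPM in Pax7_GM (log2 ratio -3.12, SE 0.17, adjusted p = 0.00099). Inha, the alpha subunit of inhibin and so an antagonist of activin, had 4.35 and 4.16 CPM against 47.3 and 38.97 CPM (log2 ratio -3.07, SE 0.18). At 48 it had 10.1 and 12.6 CPM in Tw2_48 against 13.7 and 12.7 CPM in Pax7_48, and the lineages were no longer called different (adjusted p = 0.13). Serpinb1a, an inhibitor of neutrophil proteases, had 2.55 and 1.95 CPM against 25.1 and 25.9 CPM. Rian, a noncoding RNA of an imprinted domain, is described with the imprinted genes below.

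**Figure D2:**
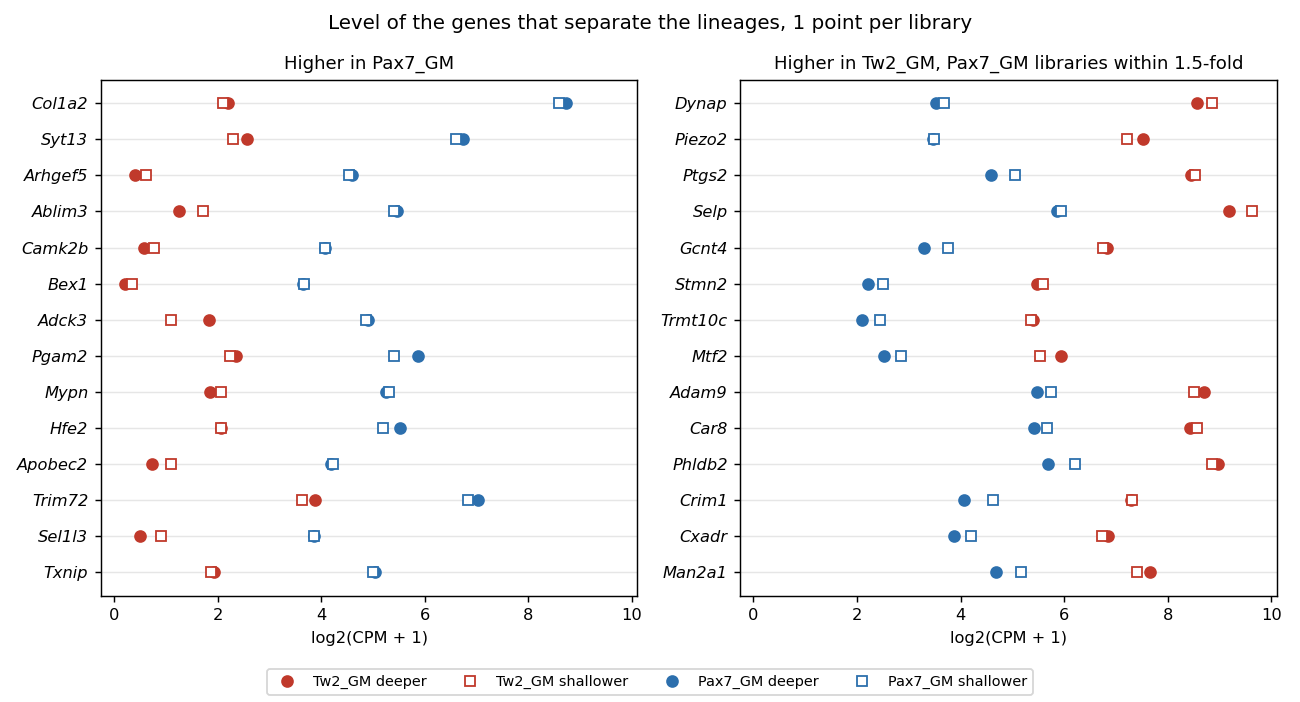
Level of single genes as log2(CPM + 1) (horizontal axis) in each of the 4 growth medium libraries. The left panel shows the 14 largest ranked differences higher in Pax7_GM. The right panel shows the 14 largest higher in Tw2_GM among genes whose Pax7_GM libraries lay within 1.5-fold. Both rankings cover genes that held under all 4 scalings, outside predicted models and the contractile, myogenic and cell cycle lists. Red marks Tw2_GM, blue Pax7_GM, filled circles the deeper and open squares the shallower library. The groups do not overlap for any gene shown, by the way the genes were chosen, and Col1a2 is the widest difference at 3.61 and 3.28 against 424 and 387 CPM.

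The largest difference toward the Tw2 lineage was that of Dynap, which encodes a membrane protein that binds dynactin. It had 378 and 465 CPM in Tw2_GM against 10.6 and 11.8 CPM in Pax7_GM, 34.7-fold apart (log2 ratio 5.12, SE 0.19, adjusted p = 0.00099). Piezo2, the mechanically gated cation channel of touch and proprioception, had 184 and 148 CPM against 10.03 and 10.2 CPM (log2 ratio 3.91, SE 0.19, adjusted p = 0.00099). Selp, P-selectin, a lectin of endothelium and platelets that binds leukocytes, had 584 and 793 CPM against 56.9 and 60.2 CPM (log2 ratio 3.53, SE 0.21, adjusted p = 0.00099). No gene of the endothelium list was among the listed genes. For these 3 genes the Pax7_GM libraries lay close together, so that the ratio hardly depends on which of them is used. Against the deeper and the shallower Pax7_GM library it was 3.57 and 3.49 for Selp. At 48 all 3 were at much lower levels in both lineages. Dynap had 4.37 and 4.79 CPM in Tw2_48 against 0.470 and 0.917 CPM in Pax7_48, Piezo2 8.23 and 5.21 against 0.470 and 0.262 CPM, and Selp 3.20 and 2.02 against 0.0940 and 0.393 CPM, where 3 reads come to between 0.218 and 0.393 CPM.

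Genes of prostaglandin synthesis lay on both sides. Ptgs2, the inducible cyclooxygenase, had 349.7 and 369 CPM in Tw2_GM against 23.03 and 32.2 CPM in Pax7_GM (log2 ratio 3.65, SE 0.22, adjusted p = 0.00099). Pla2g4a, the cytosolic phospholipase A2 that frees its substrate arachidonic acid, had 158 and 169.5 CPM against 8.81 and 22.6 CPM (log2 ratio 3.31, SE 0.41). Ptgis, prostacyclin synthase, had 124 and 165 CPM against 54.7 and 41.3 CPM (log2 ratio 1.57), and Ptges3, a co-chaperone also called cytosolic prostaglandin E synthase, 231 and 227 against 73.3 and 98.97 CPM (log2 ratio 1.40). All 4 held under every scaling. In the prostaglandin list as a whole 5 of 15 listed genes were called higher and 4 lower (4 and 2 held). The lower side also included the phospholipases A2 Pla2g16 and Pla2g6, with log2 ratios of -0.80 and -0.80, of which that of Pla2g6 changed sign with the trend removed (0.074, adjusted p = 0.66). Both calls were lost without the deeper Tw2_GM library (adjusted p = 0.29 and 0.13) and without the shallower one (0.075 and 0.22). Cbr1, the carbonyl reductase that converts prostaglandin E2, was on the lower side at 2.71 and 3.36 against 18.7 and 16.98 CPM (log2 ratio -2.22). The list's median log2 ratio was 0.28, -0.07 with size factors and -0.15 after quantile normalization, close to the medians of all genes. At 48 Ptgs2 had 35.2 and 31.8 CPM in Tw2_48 against 2.25 and 2.62 CPM in Pax7_48, and the lineage difference did not pass the interaction test (adjusted p = 0.32).

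Other genes with a large difference toward Tw2_GM and Pax7_GM libraries within 1.5-fold were read from the table after their values were seen. Car8, a carbonic anhydrase-related protein without enzyme activity, had 344 and 377 CPM against 41.6 and 49.97 CPM (log2 ratio 2.95, SE 0.19). Adam9, a membrane protease, had 414 and 365 CPM against 43.6 and 52.7 CPM (log2 ratio 2.99, SE 0.19). Phldb2, which anchors microtubules near focal adhesions, had 502 and 464 CPM against 50.4 and 73.1 CPM (log2 ratio 2.95, SE 0.23). These 3 were abundant in Tw2_GM and were also present in both Pax7_GM libraries. Crim1, a membrane protein that binds BMPs, had 156 and 157 against 15.9 and 23.7 CPM, and Eng (endoglin, a TGF-beta co-receptor) 67.4 and 80.7 against 13.8 and 9.45 CPM. Stmn2, a stathmin that destabilises microtubules, had 43.5 and 46.9 against 3.66 and 4.63 CPM, Gcnt4, which branches O-linked glycans, 113 and 107 against 8.81 and 12.5 CPM, and Mtf2, an accessory subunit of Polycomb repressive complex 2, 60.05 and 45.3 against 4.74 and 6.17 CPM. Of these, Eng is the only gene higher in the deeper than in the shallower Pax7_GM library. Exons of Crim1, Eng and Mtf2 overlap those of neighbouring genes. Of the 50 genes ranked as largest outside the contractile, myogenic and cell cycle lists, 13 have such an overlap with a gene or gene model. They are Selp, Fmr1, Far1, Pik3c2a, Gcnt4, Arid4b, Stag2, Arhgef5, Bex1, Adck3, Trim72, Txnip and Rian. Of all 210 genes given by name here it was 69, and their levels may include reads of the other gene.

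For the other genes among the 25 largest of that ranking toward Tw2_GM the shallower Pax7_GM library was 1.63 (Flrt2) to 4.37 times (Pik3c2a) as high as the deeper one. Flrt2, an adhesion and guidance protein that binds Unc5 receptors, had 301 and 302 CPM in Tw2_GM against 15.6 and 25.5 CPM in Pax7_GM (log2 ratio 3.81, SE 0.26). Dock11, an exchange factor for Cdc42, had 50.5 and 37.01 against 1.22 and 3.28 CPM (log2 ratio 3.78, SE 0.35), and Fmr1, an RNA-binding protein that restrains translation, 209 and 162 against 9.08 and 23.9 CPM (log2 ratio 3.41, SE 0.44). Ddx3x, an RNA helicase, had 759 and 670.3 against 38.7 and 117 CPM, Hsp90aa1, the inducible cytosolic Hsp90, 454 and 404 against 22.9 and 70.2 CPM, and Ipo7, a nuclear import receptor, 528 and 437 against 27.9 and 67.1 CPM. In each case the deeper Pax7_GM library was the lowest of the 4. Against it the log2 ratio of Ddx3x was 4.17, and against the shallower one 2.61. Reads of Ddx3x and Hsp90aa1 can be shared with near-identical copies elsewhere in the genome, so that their levels are uncertain. For these genes the size of the difference rests on which Pax7_GM library is taken. Far1 (fatty alcohol synthesis), Pik3c2a (a class II phosphoinositide 3-kinase), Dzip3 (an RNA-binding ubiquitin ligase), Sytl5 and Tbc1d8b (Rab effector and Rab regulator), Arid4b (a subunit of Sin3 histone deacetylase complexes), Stag2 (cohesin), Arhgap5, Lin7c, Rlf, Rif1 and U2surp made up the rest, with log2 ratios between 3.11 (U2surp) and 3.40 (Dzip3).

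Promoters were read from RefSeq (GRCm38.p6, 250 bases before to 50 after the most upstream start of a gene) for 4302 of the 5457 genes and 1439 of the 1835 that held. The motifs searched on both strands were CAGCTG, the E-box bound by MyoD and myogenin with E-proteins, CATATG, the E-box bound by Twist proteins, TGANTCA, the AP-1 site, and TATAAA, the TATA box. No matches overlap in the promoters printed. CAGCTG was in 85 of 352 promoters of genes that held as lower in Tw2_GM (24.1%) and in 136 of 1087 of those that held as higher (12.5%), against 15.8% of listed genes and 16.1% of all 27025 promoters of the RefSeq table. Without the contractile and myogenic lists the share of the lower genes was 20.4%, and among the contractile genes that held as lower it was 22 of 47. CATATG was rare in both directions (3 and 15 promoters, against 1.58% of listed genes and 3.91% of all). TGANTCA was in 7.67% of the lower and 3.22% of the higher genes (4.30% of listed genes and 7.92% of all), and TATAAA in 11.4% and 5.34% (6.88% of listed genes and 14.2% of all). The ratio of observed to expected CpG was over 0.6 in 85.6% of the higher, 48.6% of the lower and 76.7% of all listed genes. Genes higher in Tw2_GM thus had CpG-rich promoters more often than those lower there. These shares are descriptions, and a match is not a bound site.

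The 250 bases before the start are shown for the gene with the widest difference (Col1a2), for 3 muscle genes lower in Tw2_GM whose difference was smaller at 48 (Apobec2, Tmem182 and Pygm), which hold the E-box CAGCTG, and for Selp as a gene higher in Tw2_GM. Capitals mark the 4 motifs above, each 5′ to 3′ on the strand of the gene. Col1a2, chr6:4505368-4505617, plus strand, holds none of them, and lies before its RefSeq start, which is downstream of the start of the GENCODE gene given above. Apobec2, chr17:48432729-48432978, minus strand, has TATAAA beginning 34 bases and CAGCTG 23 bases before the start. Tmem182, chr1:40805351-40805600, plus strand, has TATAAA on the opposite strand (TTTATA as printed) beginning 129 bases and CAGCTG 41 bases before it. Pygm, chr19:6384158-6384407, plus strand, has CAGCTG beginning 168 and 8 bases before it. Selp, chr1:164115014-164115263, plus strand, has a TGANTCA beginning 139 bases before it.
Col1a2: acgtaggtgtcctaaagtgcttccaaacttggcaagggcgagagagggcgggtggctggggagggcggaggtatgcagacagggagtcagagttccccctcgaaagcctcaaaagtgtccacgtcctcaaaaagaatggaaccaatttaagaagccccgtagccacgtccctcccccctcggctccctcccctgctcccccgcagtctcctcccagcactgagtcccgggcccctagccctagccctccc
Apobec2: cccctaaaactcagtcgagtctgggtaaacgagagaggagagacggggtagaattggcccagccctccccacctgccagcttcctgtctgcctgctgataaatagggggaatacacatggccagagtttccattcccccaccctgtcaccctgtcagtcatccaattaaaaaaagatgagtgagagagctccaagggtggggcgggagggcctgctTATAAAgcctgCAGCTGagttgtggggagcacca
Tmem182: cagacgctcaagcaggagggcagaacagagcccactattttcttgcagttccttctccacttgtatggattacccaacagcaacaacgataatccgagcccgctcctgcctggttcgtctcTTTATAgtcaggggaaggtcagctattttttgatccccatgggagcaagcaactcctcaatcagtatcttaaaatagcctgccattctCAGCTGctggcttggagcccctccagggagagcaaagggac
Pygm: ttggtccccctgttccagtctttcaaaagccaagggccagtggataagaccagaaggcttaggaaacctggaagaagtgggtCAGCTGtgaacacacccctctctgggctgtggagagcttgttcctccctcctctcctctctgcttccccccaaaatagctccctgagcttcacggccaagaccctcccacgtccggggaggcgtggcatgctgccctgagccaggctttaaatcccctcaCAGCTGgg
Selp: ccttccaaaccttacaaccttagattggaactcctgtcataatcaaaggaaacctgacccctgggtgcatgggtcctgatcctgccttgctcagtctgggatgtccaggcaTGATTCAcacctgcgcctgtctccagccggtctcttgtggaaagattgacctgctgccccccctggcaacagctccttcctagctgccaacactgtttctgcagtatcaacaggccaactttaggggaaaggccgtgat

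Gene lists of the nucleus leaned toward Tw2_GM under each of the 4 scalings. Of 167 listed genes of RNA processing, 119 were called higher and 3 lower in Tw2_GM, and 83 and 1 held under every scaling. Their median log2 ratio was 1.17 as deposited, 0.83 with size factors, 0.70 after quantile normalization and 0.76 with the trend removed. Srsf10, a splicing regulator, had 195 and 170.1 CPM in Tw2_GM against 14.2 and 27.01 CPM in Pax7_GM, and Prpf39, a protein of the U1 snRNP, 73.4 and 44.6 against 4.34 and 8.49 CPM. The 3 genes on the lower side were Exosc4, Rbm38 and Dis3l2, with log2 ratios of -0.73, -0.73 and -0.64. None of these 3 calls was made without the deeper Tw2_GM library (adjusted p = 0.21, 0.23 and 0.24) or without the shallower one (adjusted p = 0.21, 0.2 and 0.34). Among 115 C2H2 zinc finger genes 84 were higher and 7 lower (57 and 1 held), with a median of 1.27 as deposited, 0.96 with size factors, 0.77 after quantile normalization and 0.84 with the trend removed. Zfp292 had 74.7 and 50.02 CPM against 4.06 and 9.07 CPM and Zfp62 61.7 and 46.2 against 3.12 and 8.49 CPM. Zfp36l1, a CCCH protein that speeds the decay of messages with AU-rich elements and is in the list by its symbol, was the 1 member that held as lower, at 10.8 and 10.3 against 21.3 and 24.1 CPM. It was lost without the deeper or the shallower Tw2_GM library (adjusted p = 0.0504 and 0.068). Among 110 chromatin genes 77 were higher and 2 lower (52 and 0 held), with a median of 1.13 as deposited, 0.79 with size factors, 0.59 after quantile normalization and 0.82 with the trend removed. Atrx, a chromatin remodeller, had 164 and 98.4 CPM against 7.59 and 27.01 CPM, Smarca5, the ISWI ATPase, 103 and 89.9 against 7.45 and 21.99 CPM, and Suz12, a core subunit of Polycomb repressive complex 2, 162 and 124 against 16.3 and 30.7 CPM. These lists have a low GC content. The median over genes was 44.6%, 44.8% and 47.03% in the 3 lists and 48.7% over all, and their median ratio was larger against the deeper Pax7_GM library (RNA processing 1.43) than against the shallower one (0.996). With the trend removed the 3 medians lay 0.23, 0.31 and 0.29 above that of all genes.

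Ribosome biogenesis, translation factors and nuclear transport leaned the same way, nuclear transport only slightly with the trend removed, and the ribosomal protein list did not. Among 60 genes of ribosome biogenesis 39 were higher and 1 lower (20 and 0 held), with a median of 0.79 as deposited, 0.44 with size factors, 0.22 after quantile normalization and 0.93 with the trend removed. Nucleolin (Ncl) had 1522 and 1355 CPM in Tw2_GM against 180.2 and 311 CPM in Pax7_GM, and nucleophosmin (Npm1), its partner in the nucleolus, 603 and 588 against 58.3 and 127 CPM. Npm1 has near-identical copies in the genome, and its level is uncertain. Among 39 translation factors and aminoacyl-tRNA synthetases 25 were higher and 2 lower (18 and 1 held). Their median was 1.23 as deposited, 0.92 with size factors, 0.78 after quantile normalization and 0.83 with the trend removed. Abce1, which recycles ribosomes, had 350.4 and 337 CPM against 22.8 and 66.2 CPM, and Eif3a, a subunit of the initiation factor that loads the small ribosomal subunit, 712 and 557 against 79.4 and 132 CPM. Lars2, the mitochondrial leucyl-tRNA synthetase, was the 1 member that held as lower, at 430.4 and 526 against 1500.2 and 888 CPM, a level that is uncertain because part of its transcript resembles mitochondrial ribosomal RNA. Nuclear transport had 23 of 39 genes higher and 0 lower (14 held), led after Ipo7 by the importin Kpna3 at 163 and 145 against 14.1 and 29.1 CPM and the exportin Xpo1 at 443 and 356 against 37.5 and 78.7 CPM. The median of nuclear transport was 0.84 as deposited, 0.49 with size factors and 0.41 after quantile normalization. With the trend removed it was 0.61, beside 0.53 over all genes. The ribosomal protein list gave 6 higher and 1 lower of 20 (2 and 0 held, median 0.06 as deposited, -0.29 with size factors, -0.48 after quantile normalization and 0.46 with the trend removed). Some of its genes called higher are protein kinases, in the list by their symbols, and are not ribosomal proteins. Proteins of the mitochondrial ribosome gave 3 higher and 9 lower of 15 (2 and 1 held, median -0.63 as deposited, -0.97 with size factors, -1.18 after quantile normalization and 0.61 with the trend removed). Histone genes were more often lower. Of 10 listed histone genes 4 were called lower and 1 higher, among them Hist1h2bc (8.63 and 10.5 against 34.5 and 35.3 CPM) and Hist1h1c (7.80 and 12.4 against 38.7 and 32.8 CPM), but their median of -0.24 became 0.31 with the trend removed.

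Protein turnover and folding were mixed. Among 172 ubiquitin genes 97 were called higher and 22 lower in Tw2_GM (68 and 13 held), with a median of 0.92 as deposited, 0.58 with size factors, 0.35 after quantile normalization and 0.56 with the trend removed. The deubiquitinases Usp9x (389.7 and 328 against 20.1 and 61.3 CPM) and Usp1 (148 and 129 against 12.5 and 25.3 CPM) and the activating enzyme Uba6 (70.9 and 51.6 against 4.47 and 9.45 CPM) were among the largest on the higher side. The largest on the lower side were Trim72, described above, and Trim47, at 1.81 and 2.57 against 24.9 and 15.8 CPM. Trim47 was again lower at 48 (log2 ratio -2.06). Next came Trim54, which stabilises microtubules in muscle (3.29 and 4.07 against 27.5 and 28.6 CPM), and Klhl41, a ligase adaptor of muscle (6.08 and 7.35 against 36.2 and 35.3 CPM). Klhl41 was called with the opposite sign at 48 (log2 ratio 0.42). Proteasome genes gave 2 higher and 5 lower of 11 (2 and 1 held, median -0.60 as deposited, -0.95 with size factors, -1.04 after quantile normalization and 0.54 with the trend removed). Among 60 chaperones 26 were higher and 8 lower (20 and 5 held). Hsp90aa1, the cyclophilin Ppig (109 and 76.8 against 9.21 and 22.8 CPM) and the Hsp40 proteins Dnaja1 (51.8 and 53.4 against 5.96 and 11.96 CPM) and Dnajc2 (97.5 and 85.9 against 11.2 and 22.6 CPM) led the higher side. The 4 largest on the lower side were the small heat shock proteins Hspb8, Hspb7 (1.15 and 0.354 against 10.3 and 12.2 CPM), Hspb3 (0.657 and 0.531 against 7.04 and 6.56 CPM) and Hspb2 (5.50 and 5.84 against 23.6 and 26.6 CPM), of which Hspb2 did not hold under every scaling.

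**Figure D3:**
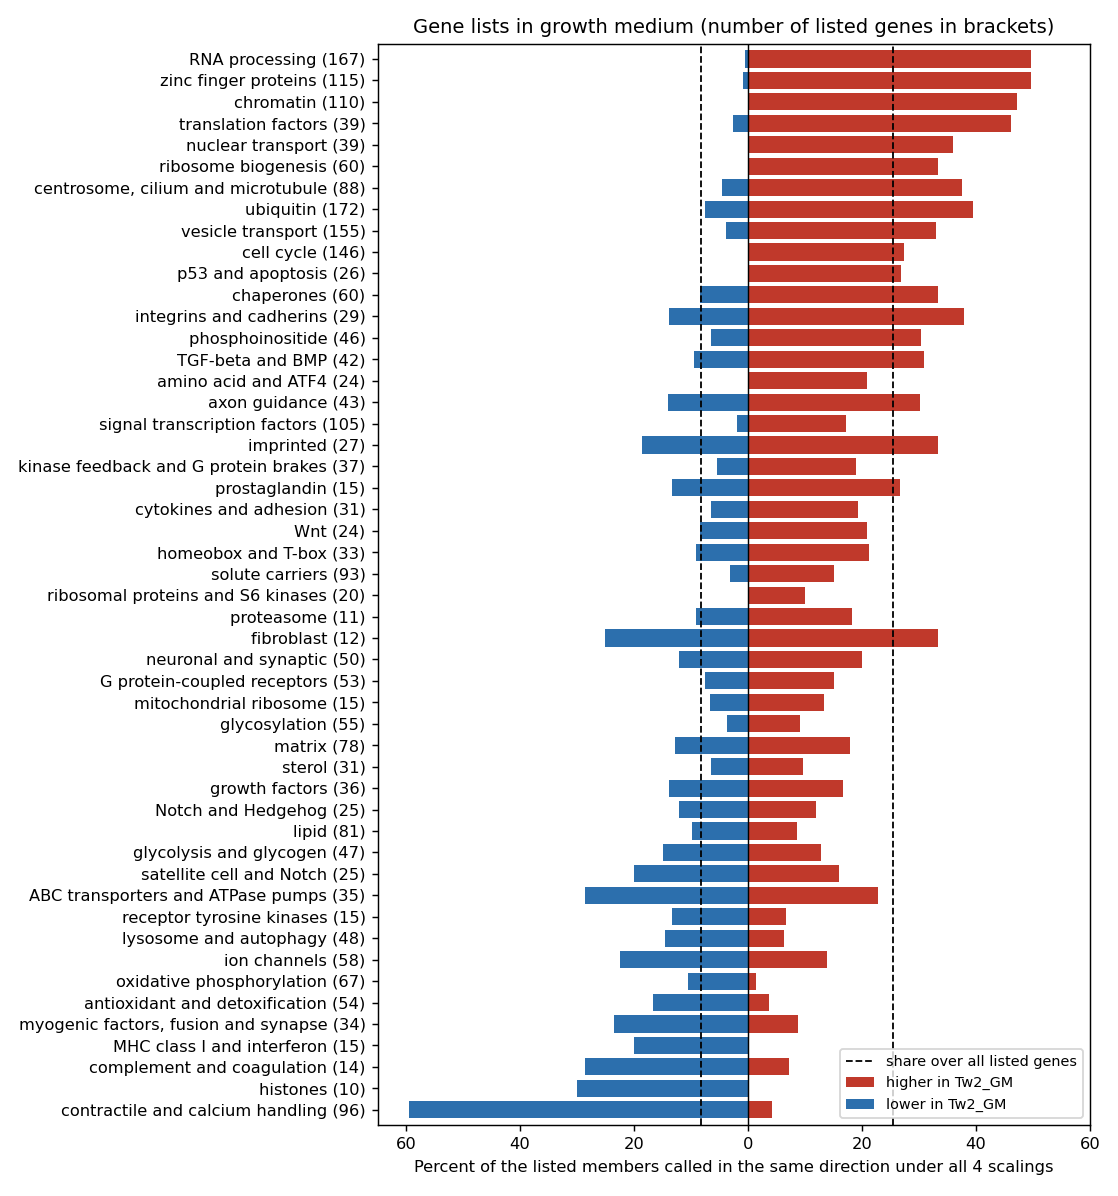
Percent of the listed members of gene lists (number in brackets) that were called higher (red, to the right) or lower (blue, to the left) in Tw2_GM under all 4 scalings, for lists with 10 or more listed genes. Dashed lines give the shares over all listed genes, 25.5% higher and 8.15% lower. RNA processing reached 49.7% on the higher side and the contractile list 59.4% on the lower side.

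Among ligands, growth factors went both ways, with 9 of 36 called higher and 8 lower (6 and 5 held). Fstl1, a secreted glycoprotein of the follistatin family, had 549 and 551 CPM in Tw2_GM against 112 and 139.7 CPM in Pax7_GM (log2 ratio 2.12, SE 0.19, adjusted p = 0.0019). Igfbp7, which binds insulin-like growth factors, had 124 and 144 against 33.5 and 32.8 CPM (log2 ratio 1.98). On the deposited scale its sign turned at 48, where the log2 ratio was -0.40 and was called. With the trend removed the sign did not turn, and the log2 difference at 48 was 0.47. On the lower side, after Gas6, stood myostatin (Mstn), the TGF-beta family brake on muscle growth, at 0.575 and 0.266 against 5.55 and 5.59 CPM, and Ctgf, a matricellular target of TGF-beta and Yap, at 17.1 and 18.9 against 82.5 and 69.8 CPM (log2 ratio -2.02). The lineage difference of Ctgf was larger at 48 (log2 ratio -2.71, interaction adjusted p = 0.049).

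Of the 5 listed receptors of TGF-beta and BMP ligands, which are not a gene list of their own, 4 held as higher in Tw2_GM, beside 25.5% of all genes. Acvr1 did not pass the test (log2 ratio 0.31) except with the trend removed (adjusted p = 0.0082). Of 42 listed genes of this pathway 16 were higher and 6 lower (13 and 4 held), with a median of 0.29 as deposited, -0.05 with size factors, -0.26 after quantile normalization and 0.64 with the trend removed. The type I receptors Bmpr1a and Tgfbr1 had 167 and 144 against 13.7 and 32.03 CPM and 71.5 and 64.98 against 5.55 and 13.7 CPM, the activin type II receptor Acvr2a 62.02 and 48.7 against 8.81 and 13.3 CPM, and the BMP type II receptor Bmpr2 159 and 143 against 24.9 and 51.1 CPM. For each of them the deeper Pax7_GM library was the lowest. Bmpr1a, Acvr2a and Bmpr2 lie in the fifth of genes with the lowest GC content, where 617 of 1088 genes held as higher. With the trend removed the log2 ratio went from 2.71 to 1.45 for Bmpr1a, from 2.22 to 0.74 for Acvr2a and from 1.96 to 0.46 for Bmpr2. The largest on the lower side were a matrix protein of the latent TGF-beta binding family and extracellular ligands or antagonists. Ltbp2 had 10.8 and 13.6 CPM in Tw2_GM against 64.9 and 70.2 CPM in Pax7_GM, and the opposite sign was called at 48 (log2 ratio -2.37 in growth medium and 1.35 at 48, interaction adjusted p = 6.9e-05). Chrd, which sequesters BMPs, had 2.05 and 1.06 against 6.23 and 5.98 CPM, and Grem1, another BMP antagonist, 23.4 and 16.7 against 29.5 and 42.8 CPM. The difference of Grem1 was larger at 48 (log2 ratio -0.82 against -3.07, interaction adjusted p = 0.0022), while its call in growth medium was lost without the deeper or the shallower Tw2_GM library or the shallower Pax7_GM library (adjusted p = 0.056, 0.32 and 0.065).

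In the Wnt list 9 of 24 genes were higher and 4 lower (5 and 2 held). The co-receptor Lrp6 (109 and 103 against 22.9 and 38.4 CPM), the R-spondin receptor Lgr4 (31.7 and 31.1 against 6.23 and 9.07 CPM) and the scaffold Apc (115 and 91.5 against 17.2 and 35.1 CPM) held as higher. Wnt9a, a ligand, held as lower, at 17.6 and 19.3 against 70.6 and 68.5 CPM, with the ratio of the opposite sign at 48 (log2 ratio 0.27). In the Notch and Hedgehog list the counts were 8 higher and 6 lower of 25. Adam10 and Adam17, the proteases that cut Notch at the surface, were higher (126 and 118 against 20.7 and 39.4 CPM and 105 and 100.5 against 23.2 and 41.3 CPM), while Notch3 was lower (27.6 and 30.99 against 78.98 and 79.7 CPM). Among receptor tyrosine kinases 3 of 15 were higher and 4 lower. Met, the receptor of hepatocyte growth factor that activates satellite cells, had 320.4 and 309.6 CPM in Tw2_GM against 88.9 and 124 CPM in Pax7_GM (log2 ratio 1.55, SE 0.22, adjusted p = 0.0037). The opposite sign was called for Met at 48 (log2 ratio -0.30, interaction adjusted p = 0.0025). Ephb6, an Eph receptor without kinase activity, had 39.1 and 41.3 against 157 and 131 CPM, and Erbb3 9.45 and 8.94 against 23.4 and 22.96 CPM. Erbb3 was called with the opposite sign at 48 (log2 ratio 0.76, interaction adjusted p = 0.00033). Of 37 feedback inhibitors of these pathways 13 were higher and 6 lower (7 and 2 held). Rasa1, a GTPase-activating protein, had 813 and 662 against 53.5 and 137 CPM (log2 ratio 2.94) and Rasa2 44.4 and 34.3 against 5.28 and 8.30 CPM, but Spry1, the feedback inhibitor that returns satellite cells to quiescence, had 12.6 and 9.38 against 40.8 and 38.6 CPM (log2 ratio -1.76, adjusted p = 0.0029).

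Surface and matrix genes lay on both sides. In the matrix list 26 of 78 genes were higher and 15 lower (14 and 10 held), and the median was 0.16 as deposited, -0.19 with size factors, -0.22 after quantile normalization and 0.57 with the trend removed. Has2, which makes hyaluronan, had 124 and 137 CPM in Tw2_GM against 10.4 and 27.2 CPM in Pax7_GM (log2 ratio 2.73, SE 0.42), and versican (Vcan), the proteoglycan that binds hyaluronan, 131 and 122 against 23.4 and 42.3 CPM (log2 ratio 1.92). Col8a1, a short-chain collagen, had 128 and 87.6 against 21.5 and 27.2 CPM, and Lox, which cross-links collagen and elastin, 33.6 and 45.8 against 9.62 and 15.05 CPM. At 48 neither Col8a1 nor Lox was called between the lineages (log2 ratios -0.37 and 0.12). On the lower side, after Col1a2, were Frem2, a basement membrane protein of skin and kidney, at 1.48 and 1.15 against 13.4 and 16.6 CPM, and Emilin1, a glycoprotein of elastic fibres, at 5.42 and 6.91 against 47.01 and 37.4 CPM. Among integrins and cadherins 13 of 29 were higher and 7 lower (11 and 4 held). Itga6, a laminin receptor subunit, had 890.0 and 759 against 169 and 215 CPM (log2 ratio 2.09), and its common partner Itgb4 was on the other side at 92.5 and 121 against 309 and 261 CPM (log2 ratio -1.40). Itgb1, the other partner, had 1524 and 1535 against 360.4 and 559 CPM (log2 ratio 1.73). Dchs1, a giant protocadherin of planar polarity, had 4.35 and 3.28 against 30.1 and 35.5 CPM. Of 43 genes of axon guidance 16 were higher and 9 lower (13 and 6 held). Sema3a (225 and 171 against 16.5 and 36.5 CPM), Sema3e (499 and 416 against 108 and 161 CPM) and netrin 1 (Ntn1, 93.6 and 82.2 against 28.3 and 26.4 CPM) were higher, and the transmembrane protein Tenm4 was lower (2.79 and 1.42 against 10.6 and 12.2 CPM), with the opposite sign at 48 (log2 ratio 1.57).

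Cytokine and adhesion genes gave 8 higher and 7 lower of 31. After Selp the largest on the higher side was Lifr, the receptor of leukaemia inhibitory factor, at 21.7 and 21.5 against 4.61 and 6.56 CPM, and the largest on the lower side was Cd200, which restrains macrophages, at 9.04 and 10.8 against 37.4 and 44.6 CPM. Of 15 listed genes of the class I and interferon list 6 were called lower, 1 higher and 8 neither, with a median of -0.42 as deposited, -0.73 with size factors, -0.65 after quantile normalization and -0.02 with the trend removed. H2-K1, a classical class I heavy chain, had 6.00 and 6.55 CPM in Tw2_GM against 51.6 and 50.2 CPM in Pax7_GM (log2 ratio -2.83, SE 0.17, adjusted p = 0.00099). Tap2, a subunit of the peptide transporter, had 4.76 and 3.63 against 38.2 and 29.7 CPM (log2 ratio -2.75), and tapasin (Tapbp), which links it to class I molecules, 9.61 and 11.1 against 30.6 and 27.2 CPM (log2 ratio -1.40). All 3 held under every scaling and were called lower again at 48. No other member of the list held. Class I heavy chains are near-identical to each other, and the level of H2-K1 is uncertain for that reason.

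Ion channels were lower in Tw2_GM more often than higher, with 27 of 58 lower and 16 higher (13 and 8 held). The median was -0.44 as deposited, -0.69 with size factors, -0.45 after quantile normalization and 0.18 with the trend removed, and so changed sign with the trend removed. Cacna1s, the voltage sensor of excitation-contraction coupling, had 6.74 and 4.60 CPM in Tw2_GM against 70.3 and 65.02 CPM in Pax7_GM, the sodium channel subunit Scn3b 0.986 and 0.266 against 7.86 and 8.87 CPM and the gap junction protein Gja5 5.09 and 4.16 against 18.6 and 20.6 CPM. After Piezo2 the largest on the higher side were Trpm7, a magnesium-permeable channel with a kinase domain (139 and 109.6 against 10.8 and 26.04 CPM), Kcnn4, a calcium-activated potassium channel of dividing cells (60.2 and 82.9 against 16.3 and 15.4 CPM), and the chloride-proton exchanger Clcn3 (125 and 126 against 23.7 and 36.8 CPM). Of 35 ABC transporters and ATPase pumps 11 were higher and 14 lower (8 and 10 held). Solute carriers had 34 higher and 19 lower of 93. The bicarbonate transporter Slc4a7 (142 and 114 against 10.4 and 24.5 CPM) and the zinc exporter Slc30a4 (291 and 235 against 34.1 and 62.1 CPM) were the largest on the higher side.

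Vesicle transport had 74 higher and 27 lower of 155 (51 and 6 held), shares of 47.7% and 17.4% that lie near those of all genes. Gcc2, a golgin (35.7 and 23.1 against 2.71 and 4.63 CPM), and Ap3m1, a subunit of an adaptor for lysosomal cargo (63.3 and 65.1 against 6.50 and 12.5 CPM), were among the largest on the higher side, and Rab40b (0.493 and 0.531 against 7.59 and 7.14 CPM) followed Syt13 on the lower. Phosphoinositide genes gave 24 higher and 5 lower of 46, with Rictor, the defining subunit of mTOR complex 2, at 64.6 and 52.1 against 7.04 and 12.7 CPM, and Isyna1, which makes inositol, at 11.99 and 12.9 against 57.98 and 45.3 CPM. Rock1 and Rock2, the kinases that raise actomyosin tension, had 97.9 and 68.5 against 5.28 and 14.3 CPM and 327 and 233 against 21.7 and 53.4 CPM. On the lower side Prex1, an exchange factor downstream of G protein-coupled receptors, held, at 31.5 and 31.96 against 73.7 and 58.3 CPM. The call of Prex1 was lost without the deeper or the shallower Tw2_GM library (adjusted p = 0.066 and 0.057).

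Structural and neuronal genes added to both sides. Of 88 genes of centrosome, cilium and microtubule motors 48 were higher and 12 lower (33 and 4 held), with a median of 0.64 as deposited, 0.30 with size factors, 0.17 after quantile normalization and 0.89 with the trend removed. Kif5b, the heavy chain of conventional kinesin, had 407 and 325 CPM in Tw2_GM against 24.8 and 64.1 CPM in Pax7_GM. Kif1a, a kinesin of synaptic vesicle transport, was on the other side at 1.73 and 2.74 against 18.8 and 15.4 CPM (log2 ratio -2.49), as was the microtubule-associated protein Map1a at 5.09 and 6.29 against 23.2 and 23.2 CPM (log2 ratio -1.85). In the list of synaptic and neuronal genes 16 of 50 were higher and 12 lower (10 and 6 held). Tubb3, a beta-tubulin of neurons, had 58.6 and 55.8 against 18.02 and 14.9 CPM. The ranges did not overlap, which was also so for 4791 of all 5457 genes (87.8%). Of 53 G protein-coupled receptors and G protein subunits 19 were higher and 15 lower (8 and 4 held). The G protein subunit Gnai3 (271 and 262 against 32.7 and 69.1 CPM) led the higher side and the orphan receptor Gprc5c (2.22 and 2.57 against 22.4 and 17.7 CPM) the lower.

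Of 26 listed genes of the p53 response, apoptosis and senescence 12 were higher and 4 lower (7 and 0 held), shares of 46.2% and 15.4% beside 43.8% and 19.7% over all genes. Mdm4, an inhibitor of p53, had 63.3 and 38.9 CPM in Tw2_GM against 4.61 and 12.7 CPM in Pax7_GM, and Xiap, an inhibitor of caspases, 118 and 87.7 against 8.67 and 21.2 CPM. The 4 called lower were Cdkn1a, Trp53inp2, Gadd45a and Cdkn2a, of which the cell cycle inhibitor Cdkn1a had 493 and 513 against 1159.6 and 949 CPM (log2 ratio -1.07, adjusted p = 0.061 without the deeper Tw2_GM library and 0.89 with the trend removed). Of 24 genes of amino acid synthesis 7 were higher and 3 lower (5 and 0 held), and the higher share of 29.2% was below that of all genes. Among the higher ones the pseudokinase Trib3 had 32.5 and 33.3 against 9.75 and 8.49 CPM. In the list of complement and coagulation genes 4 of 14 were higher and 4 lower (1 and 4 held), with a median of 0.15. Of the higher ones, C1galt1 (log2 ratio 1.94), a glycosyltransferase, and C1d (log2 ratio 1.34), a cofactor of the RNA exosome, are in the list by their symbols and are not complement genes, and C1d changed sign with the trend removed (-0.074, adjusted p = 0.7). C1qtnf3, a C1q-related secreted protein and not a complement component, was on the lower side (log2 ratio -1.34), with the opposite sign called at 48 (0.82). The other lower ones were thrombomodulin (Thbd, 15.3 and 11.4 against 34.3 and 34.7 CPM), the protease inhibitor Serpine2 and the complement regulator Cd59a, with log2 ratios of -1.31, -1.06 and -1.05. Without the deeper Tw2_GM library the last 2 were not called (adjusted p = 0.074 and 0.066). The glycosylation list gave 19 higher and 9 lower of 55 (5 and 2 held). The shares that held, 9.09% and 3.64%, were below those of all genes, 25.5% and 8.15%. Its largest difference on the higher side was that of the Golgi mannosidase Man2a1, a hydrolase and not a transferase, at 202 and 169 against 24.8 and 35.1 CPM.

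Metabolic lists leaned toward Pax7_GM on the deposited scale, and for most of them the median changed sign when the trend was removed. Among 67 nuclear genes of oxidative phosphorylation 36 were lower and 3 higher in Tw2_GM. Only 7 and 1 held, and the median was -0.66 as deposited, -0.997 with size factors, -1.08 after quantile normalization and 0.39 with the trend removed. The 2 with the largest difference were the muscle isoforms Cox6a2 (1.48 and 1.42 CPM in Tw2_GM against 19.2 and 13.5 CPM in Pax7_GM) and Cox8b (1.23 and 0.974 against 11.4 and 6.17 CPM) of cytochrome c oxidase. Ndufb2, a ubiquitous subunit of complex I, had 40.1 and 41.6 against 98.8 and 74.1 CPM (log2 ratio -1.06, adjusted p = 0.063 without the deeper Tw2_GM library). Lysosome and autophagy genes gave 21 lower and 7 higher of 48 (7 and 3 held, median -0.47 as deposited, -0.80 with size factors, -0.98 after quantile normalization and -0.03 with the trend removed). The cathepsins Ctsf (4.27 and 5.93 against 18.7 and 17.9 CPM) and Ctsh (44.2 and 50.4 against 143 and 112 CPM) held as lower, and Lamp2, a lysosomal membrane protein, as higher (266 and 274 against 50.9 and 91.6 CPM). Of 54 antioxidant and detoxifying genes 19 were lower and 7 higher (9 and 2 held, median -0.34 as deposited, -0.68 with size factors, -0.78 after quantile normalization and 0.30 with the trend removed). Ephx1, the microsomal epoxide hydrolase, had 13.9 and 13.4 against 79.3 and 64.1 CPM, and Aldh3b1 5.42 and 5.93 against 26.3 and 22.4 CPM. In the list of glycolysis and glycogen the counts were 12 higher and 12 lower of 47. Pygm, the muscle glycogen phosphorylase whose promoter is shown above, had 19.1 and 14.7 against 149 and 117 CPM, and Ldhb, the lactate dehydrogenase subunit of oxidative tissue, 12.8 and 13.4 against 79.9 and 66.9 CPM. The difference of Pygm was smaller at 48 (log2 ratio -2.90 in growth medium and -0.28 at 48, interaction adjusted p = 0.00046), while Ldhb did not pass that test (-2.40 and -2.23, adjusted p = 0.63). Hif1a, the oxygen-regulated transcription factor, was on the higher side at 212 and 183 against 18.97 and 39.7 CPM. Lipid genes split 19 higher and 24 lower of 81, with Fitm1, a protein of lipid droplet formation in muscle, at 3.45 and 4.51 against 36.04 and 35.3 CPM, and genes of sterol synthesis and uptake 4 and 10 of 31, with Vldlr, a lipoprotein receptor, at 15.03 and 14.5 against 0.813 and 2.12 CPM.

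Transcription factors outside the zinc finger list went both ways. In the homeobox and T-box list 14 of 33 were higher and 6 lower (7 and 3 held). Six4, a homeobox factor of myogenesis, had 104 and 92.5 CPM in Tw2_GM against 24.8 and 34.3 CPM in Pax7_GM, and Meis2, a cofactor of Hox proteins, 57.7 and 48.2 against 14.5 and 21.2 CPM. Besides Prrx1, Hoxa7 held as lower, at 4.52 and 3.98 against 13.95 and 10.8 CPM. Of 105 signal transcription factors 37 were higher and 13 lower. Sox11 had 188 and 165 against 30.1 and 41.1 CPM, and Sox8, a factor of quiescent satellite cells, 2.63 and 1.42 against 20.7 and 18.3 CPM. Nuclear receptors gave 4 higher and 1 lower of 7 (2 and 0 held), and the wider satellite cell list 6 higher and 7 lower of 25 (4 and 5 held). Among 34 myogenic genes 8 were higher and 11 lower. Mef2a and Mef2c, which act with MyoD family factors, were on opposite sides. Mef2a had 267 and 220.1 against 41.3 and 73.5 CPM (log2 ratio 2.06) and Mef2c 2.14 and 2.48 against 13.5 and 25.5 CPM (log2 ratio -2.63). The fusion genes Tmem8c (myomaker) and Gm7325 (myomixer) were lower, at 41.2 and 41.6 against 233 and 199 CPM and 2.46 and 1.95 against 33.5 and 21.03 CPM. The contractile list had 68 of 96 genes lower and 7 higher, and the cell cycle list 3 of 146 lower and 67 higher, with a median of 0.47 as deposited, 0.12 with size factors, -0.03 after quantile normalization and 0.78 with the trend removed.

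Imprinted genes, which are expressed from the allele of 1 parent, divided in both directions. Of 27 listed, 11 were higher and 8 lower in Tw2_GM (9 and 5 held), and the median was 0.26 as deposited, -0.05 with size factors, -0.15 after quantile normalization and 0.73 with the trend removed. The noncoding RNAs Meg3 and Rian, which are transcribed from the maternal copy of the Dlk1-Dio3 domain on chromosome 12, were lower. Meg3 had 3.29 and 2.83 CPM in Tw2_GM against 18.3 and 32.2 CPM in Pax7_GM (log2 ratio -2.69, SE 0.29, adjusted p = 0.0028), and Rian 5.91 and 4.07 against 39.6 and 57.9 CPM (log2 ratio -3.05, SE 0.27, adjusted p = 0.0018). Both differences were larger at 48 (log2 ratios -4.57 and -4.70, interaction adjusted p = 0.0082 and 0.017). Ndn, a paternally expressed growth suppressor of the MAGE family, was lower as well, at 22.7 and 20.1 against 99.2 and 77.2 CPM (log2 ratio -1.99). The largest on the higher side were Plagl1, a paternally expressed zinc finger factor at 1576 and 1430.5 against 134 and 227 CPM (log2 ratio 3.05, SE 0.28, adjusted p = 0.0019), and Zim1, at 120.3 and 69.7 against 9.35 and 21.8 CPM. Peg3, another paternally expressed zinc finger gene, had 1666 and 1299 against 234 and 387 CPM (log2 ratio 2.25). Rian overlaps small RNA genes that lie within it.

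By chromosome the median log2 ratio ran from -0.10 on chromosome 6 (269 genes) to 1.002 on chromosome 18 (152 genes). With the GC and length trend removed it ran from 0.19 on chromosome 6 to 0.88 on chromosome 16. On chromosome 6, 38 genes held as lower (14.1%, beside 8.15% over all genes), among them Col1a2, Arhgef5 and Atp6v0e2. On chromosome X 108 of 196 genes were called higher (55.1%) and 35 lower (17.9%), beside 43.8% and 19.7% over all genes. The median on X was 0.85 as deposited, beside 0.33 over all genes. With the trend removed it was 0.49, slightly below the 0.53 of all genes. The median GC content was 44.6% on X and 48.7% over all genes. Xist, a non-coding RNA that covers the silenced X chromosome of female cells, had 1188 and 659 CPM in Tw2_GM against 45.9 and 175 CPM in Pax7_GM (log2 ratio 3.05, SE 0.64, adjusted p = 0.0074). The ratio was again positive at 48 (log2 ratio 2.16). Y-linked genes were not analysed here, and the labels give no sex. The Pax7_GM libraries differed 3.81-fold from each other for Xist, in the direction of their common gap.

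At 48, 2724 genes (50.0%) were called higher and 1542 (28.3%) lower in the Tw2 lineage, among 5452 genes with values in all 8 libraries. These were 2184 and 2158 with size factors, 2087 and 2165 after quantile normalization, and 2936 and 859 with the trend removed. The difference between the lineage differences in the 2 cultures was called for 1021 genes (18.7%), of which the ratio was higher in growth medium for 491 and lower for 530. That split was 223 and 656 with size factors, 453 and 688 after quantile normalization, and 1155 and 606 with the trend removed. Of the 1390 genes that held as higher in Tw2_GM, 1329 were called higher again at 48 and 12 lower on the deposited scale. Their median log2 ratio was 1.87 in growth medium and 1.22 at 48. Under every scaling, 1111 of the 1390 were called higher at 48. The interaction test found a smaller difference at 48 for 205 of the 1390 and a larger one for 9. Of the 445 genes that held as lower, 441 could be tested at 48. There 306 were called lower again and 60 higher on the deposited scale, with medians of -1.65 and -0.59. Under every scaling, 227 of the 441 were called lower at 48. The difference was smaller at 48 for 243 of the 441 and larger for 12. Of the 380 lower genes outside the contractile, myogenic and cell cycle lists, 184 had a smaller difference at 48. These genes were chosen by their values in growth medium, which by itself favours a smaller difference at 48, and the part of that choice was not tested. The lineage ratio at 48 also went with GC content (Spearman's rank correlation -0.61, beside -0.69 in growth medium). Its median at 48 was 1.17 at the lowest GC content (33.0 to 43.2%) and -0.27 at the highest (55.1 to 71.3%). A call made again at 48 is therefore not free of the GC trend, whose part was not tested.

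**Figure D4:**
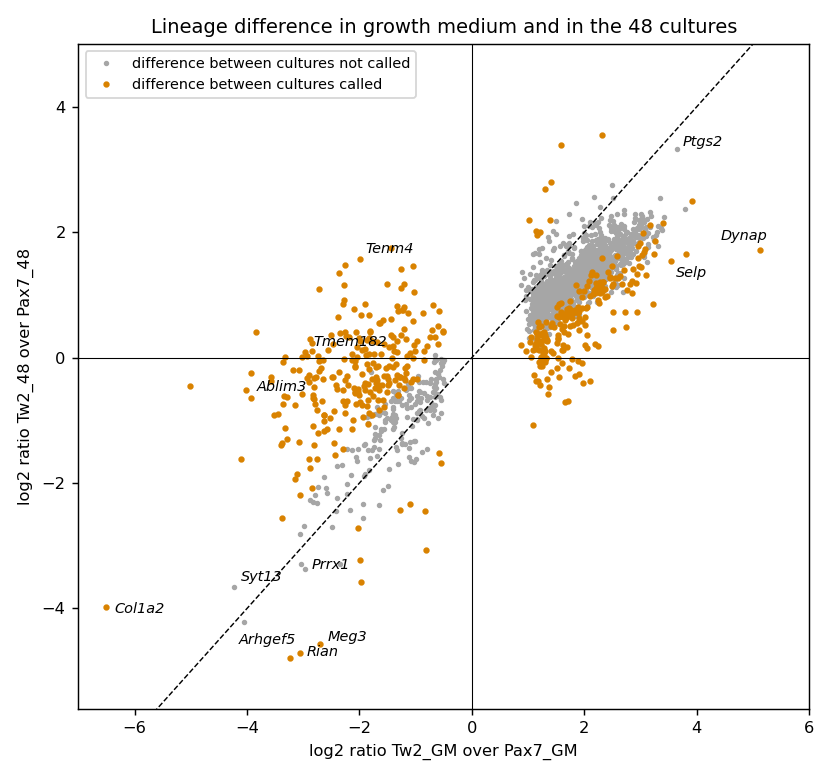
Log2 ratio of the Tw2 over the Pax7 lineage in growth medium (horizontal axis) and at 48 (vertical axis) for the genes whose call in growth medium held under all 4 scalings and that had values in all 8 libraries, 1 point per gene. Orange points are genes for which the difference between the cultures was called (adjusted p under 0.05), and the dashed line marks equal ratios. Arhgef5 lies near the line (-4.05 and -4.22), Tmem182 near 0 at 48 (0.03), and Meg3 below the line (-2.69 and -4.57).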

How the data were processed

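RNA sequencing was carried out on 8 libraries, 2 per group, of which the 4 of growth medium enter the lineage comparison. The deposited table gives 1 mean CPM per group and gene for 5457 genes, with log2 fold changes against Tw2_GM that the authors added and that were not used here beyond a check of how genes were listed. Each listed gene lay at least 2-fold from Tw2_GM in 1 or more groups, and each of the 5452 genes with values in all 8 libraries reached 10 CPM in at least 4 of them. Per the submitters' processing notes, TopHat2 2.0.0 and DESeq2 1.6.3 were among the tools and GRCm38 (mm10) was the build, with no roles given, and the counting and strand setting are not given in the sources used here.

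The deposited CPM of a group is the mean of 2 libraries, each a whole number of reads over a library size. A search for sizes at which every mean splits into whole reads, within 1.1 rounding errors at 12 significant digits, gave 1 solution for all 5457 genes in both growth medium groups. These implied sizes are not whole numbers, so that a scaling factor may be within them, and which library is replicate 1 is not known. At 48, 5 genes had several solutions and were left out. On simulated means the search returned the right reads for all genes it solved.

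Group differences are log2((Tw2_GM + 1)/(Pax7_GM + 1)) of the mean CPM. Tests used limma 3.58.1 in R 4.3.3 on log2(CPM + 1) of the recovered libraries with Benjamini-Hochberg adjustment over all genes, called at adjusted p under 0.05. The 48 comparison was fitted to its own 4 libraries and the interaction to all 8. The alternative scalings were median-of-ratios size factors, quantile normalization, and removal of a smooth trend with GC content and length (natural spline, 4 degrees of freedom) from GENCODE M21 transcripts, matched for 5436 genes. Other alternatives were pseudocounts of 0.5 and 5, a filter at a group mean of 10 CPM in Tw2_GM or Pax7_GM, an intensity trend, voom on the recovered reads, a fit of all 8 libraries and leaving out each library. On simulated counts at these depths with 2 libraries a group, 33 of 107 genes changed 2-fold and 83 of 93 changed 4-fold were called, and 0 of 5257 unchanged ones. The simulation held random spread only, without the GC-dependent gap of the Pax7_GM libraries or a shift in scaling. It therefore cannot show how many real calls come from either. Named genes include the 25 largest differences in each direction that held under all 4 scalings with libraries not overlapping. That ranking left out predicted models and the contractile, myogenic and cell cycle lists. The up to 4 largest called members of each list and direction, the fixed markers and Xist are also named. Others, among them Tubb3, Bmpr2, Acvr1, Car8, Adam9 and Phldb2, were added outside these rules. The comparison, its members and the gene lists were chosen with earlier results of these data known. Some genes and 1 of the gene lists with listed members are not reported here. Python 3.11.15, pandas 2.3.3, scipy 1.17.1 and matplotlib 3.10.9 were used.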

Additional observations from a re-analysis of the deposited data

Results flagged for a closer look

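The lineage difference itself differed between growth medium and 48, by limma's interaction term over all 8 libraries, for 18.7% of all genes tested. Of the genes that held as higher in Tw2_GM it was smaller at 48 for 205 of 1390 (14.7%) and larger for 9. Of those that held as lower it was smaller for 243 of 441 (55.1%) and larger for 12. Choosing these genes by their growth medium values by itself favours a smaller difference at 48.

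The named genes below each passed that test at adjusted p under 0.05. Their values are the log2 lineage difference in growth medium minus that at 48. Among genes higher in Tw2_GM the values were 3.38 (Dynap), 1.42 (Piezo2), 2.21 (Flrt2), 1.99 (Selp), 1.27 (Dzip3), 1.62 (Gcnt4) and 1.05 (Stmn2), so that each stood further above the Pax7 lineage in growth medium.

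Among genes lower in Tw2_GM the values were -2.31 (Col1a2), -3.30 (Ablim3), -2.01 (Camk2b), -0.83 (Bex1), -2.05 (Adck3), -2.60 (Pgam2), -2.20 (Mypn), -2.66 (Hfe2), -1.99 (Apobec2), -2.99 (Trim72), -1.22 (Sel1l3), -1.27 (Txnip), -1.73 (Atp9a), -2.85 (Inha), -2.46 (Serpinb1a), -3.01 (Tmem182), -2.58 (R3hdml) and -1.28 (Hspb8). Each stood further below the Pax7 lineage in growth medium than at 48. For Col1a2 the Tw2_48 libraries were apart from each other, at 6.84 and 24.1 CPM, against 270.2 and 246 CPM in Pax7_48, and its adjusted p was 0.036. Rian went the other way, with a value of 1.65, and its lineage difference was larger at 48.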

How the results depend on the processing

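The number of genes called lower in Tw2_GM depended on the scaling. It was 1741 with size factors, 1868 after quantile normalization and 715 with the GC and length trend removed, against 1074. Leaving out 1 library gave 450 to 1591 lower and 1685 to 2696 higher calls, and the lowest counts came without a Tw2_GM library, where the lone one is assumed to vary like the Pax7_GM pair. At 48 removal of the trend left 859 lower calls. Genes with a higher ratio in growth medium than at 48 numbered 223 with size factors and 1155 with the trend removed, against 491. The 3 other scalings shifted the median of all genes, by -0.33 with size factors, -0.46 after quantile normalization and 0.20 with the trend removed, and the list medians changed sign in 22, 24 and 13 of 57 lists. Named genes were chosen largely for calls that held under every scaling or as the largest called members of a list. Agreement under those scalings was thus partly fixed by the choice, and cannot show how stable calls are over all genes. Of all 3464 genes called on the deposited scale, 1835 held under every scaling. Of 2864 values of 221 named genes under the alternatives, 2818 kept direction and call and 8 reversed. These were C1d (-0.074), Pla2g6 (0.074), Cdh15 (0.68), Des (0.56), Exosc4 (0.39), Itga7 (0.25), Pax7 (0.50) and Rbm38 (0.21), all with the trend removed. The cause of these changes was not tested. With 2 libraries a group a 2-fold difference is often missed. No paired analysis was possible because the deposited means carry no replicate numbers.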
